A study of Homo sapiens with 12 samples.

Results

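Acute-phase and complement genes were followed through 2 inhibitors and their combination in MDA-MB-468 cells, a long-cultured human line from a triple-negative, basal-like breast cancer. The 10 genes are SAA1, SAA2, CP, LCN2, A2M, C3, CFB, SERPINA1, SERPINA3 and ORM1, taken by symbol from count tables that hold 23228 genes. They were chosen by function and by differences in read counts between the groups of these same libraries, so their values are a description. An adjusted p given for a member is its place in the fit over all genes and no independent support. Of the 10 genes, 9 had enough reads to be tested, and ORM1 did not.

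Poly(A) RNA was sequenced from 4 groups of 3 libraries, lettered A, B and C. All cells were kept with DMSO or tazemetostat from day -5, moved on day 0 to medium with 2% serum, and collected 24 hours later. The groups were DMSO alone, 5 µM ipatasertib (an inhibitor of the kinase AKT, given on day 0 after DMSO), 5 µM tazemetostat (which blocks EZH2, the enzyme with which the Polycomb complex PRC2 methylates histone H3 at silenced genes), and both drugs at these doses. The labels do not say whether the letters are separate cultures, so the p-values reflect only variation among these libraries, which may be technical, and the model is 1 cell line in culture.

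Acute-phase proteins are plasma proteins whose amount shifts during inflammation or injury. The liver makes most of them, chiefly under interleukin-6 acting through STAT3 and interleukin-1 acting through NF-kB and C/EBP factors, and epithelia including mammary cells make several of them too. Complement is a cascade of plasma proteases and opsonins that marks targets for clearance, and C3 is the component on which its pathways meet. The remaining genes here encode protease inhibitors (SERPINA1, SERPINA3, A2M), an iron and copper pair (LCN2, CP), a plasma lipoprotein pair (SAA1, SAA2) and a plasma carrier (ORM1).

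RefSeq upstream sequence was at hand for 5 of the 10 genes, and not for SAA1, SAA2, CP, A2M and C3. The stretches below are shown as background, because the factors above act through such DNA. Whether they bear on any change reported here was not tested. The window searched ran from 200 to 31 bases before the RefSeq start, on both strands, for GGGNNNNNCC (an NF-kB motif), TTGCNNAA (a C/EBP motif) and TTCNNNGAA (a STAT3 motif), and capitals mark a match. Of 35116 RefSeq promoter windows of this length, 44.49% held the NF-kB letters, 6.063% the C/EBP letters and 4.497% the STAT3 letters. Coordinates are GRCh38.p14, and the sequence is that of the gene's own strand.
LCN2, chr9:128149265-128149422, plus strand: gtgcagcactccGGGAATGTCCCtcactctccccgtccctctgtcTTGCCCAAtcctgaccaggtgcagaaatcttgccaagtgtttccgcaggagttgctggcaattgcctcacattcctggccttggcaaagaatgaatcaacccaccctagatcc
CFB, chr6:31945983-31946012, plus strand: GGGGCCCTCCCgcttggatgTTCCGGGAAa
SERPINA3, chr14:94612314-94612343, plus strand: tggttgtcctGGCATTTCCCaagcaggggg
ORM1, chr9:114322976-114323005, plus strand: ttttgtgcgaGGCATTTCCCaagtgctggc
SERPINA1, chr14:94390694-94390835, minus strand: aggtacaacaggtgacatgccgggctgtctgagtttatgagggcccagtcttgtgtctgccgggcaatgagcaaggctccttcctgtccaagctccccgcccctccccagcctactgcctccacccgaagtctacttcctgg

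In the LCN2 window, 2 overlapping NF-kB matches lay 176 to 166 bases before the start and 1 C/EBP match lay 143 to 136 bases before it. The CFB window held 4 NF-kB matches, some of which overlap, and 1 STAT3 match 92 to 84 bases before the start; the 30 bases shown carry the STAT3 match and 2 of the others. SERPINA3 and ORM1 each had 1 NF-kB match, with the same 10 letters, and the SERPINA1 windows had none of the 3 motifs. GENCODE annotates exons of some transcript over all 170 bases of the CFB window, 64 of the SERPINA3 window, 28 of the SERPINA1 window shown and 12 each of the LCN2 and ORM1 windows. The CFB stretch is therefore exonic in that annotation, and the LCN2 and SERPINA1 stretches leave the exonic bases out. A match describes letters only, and no binding was measured.

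Between 12981600 and 28747000 reads fell in genes in each library, so 3 reads correspond to 0.106 to 0.228 CPM (read counts relative to the library total, scaled by TMM factors), and the combination libraries were the shallowest. Reads that fell outside genes took 18.2% to 21.0% of the counted total with DMSO and 24.3% to 26.2% with the combination; the part of this difference in the results was not tested. Within each group, the library lettered A stood further from B and C than these did from each other (chi-square per degree of freedom 4.18 to 14.7 against 2.35 to 3.47). Without the A library of every group, the only members' calls that changed were CFB with the combination, which was lost, and the interactions of LCN2 and C3, which then passed. All 9 epithelial and basal markers were detected in every group. Their summed level was 9198 to 9885 CPM with DMSO and 8703 to 8797 CPM with ipatasertib. It was 8317 to 8502 CPM with tazemetostat and 6888 to 7685 CPM with both drugs. The sum hides unlike members, since 7 of the 9 fell and 1 rose with both drugs. KRT5 went from 1718 ± 74.3 CPM with DMSO to 443 ± 35.7 with both drugs, and EGFR from 1065 ± 52.8 to 2243 ± 192. Of 8 hepatocyte markers, TTR had no read in any library and ALB had 1, 6, 8 and 6 reads over the 3 libraries of DMSO, ipatasertib, tazemetostat and the combination. The summed hepatocyte list ran from 19.1 to 20.3 CPM with DMSO, 5.18 to 6.07 CPM with ipatasertib, 36.1 to 38.6 CPM with tazemetostat and 13.9 to 14.8 CPM with both drugs, nearly all of it TF. The 8 leukocyte markers, mostly CD14, summed to 83.9 to 89.2 CPM with DMSO, 82.4 to 106 CPM with ipatasertib, 66.1 to 73.2 CPM with tazemetostat and 81.7 to 92.9 CPM with both drugs. Within that list CSF1R stood at 3.28 ± 0.452 CPM with DMSO and 19.1 ± 1.37 CPM with both drugs. The 6 fibroblast markers, mostly COL1A1, summed to 9.72 to 11.7 CPM with DMSO, 5.23 to 5.53 CPM with ipatasertib, 15.7 to 19.3 CPM with tazemetostat and 9.48 to 11.4 CPM with both drugs, and LUM went from 0 reads with DMSO to 161 with tazemetostat over 3 libraries. The 4 endothelial markers summed to 0.545 to 1.03 CPM with DMSO, 1.49 to 1.87 CPM with ipatasertib, 1.16 to 1.57 CPM with tazemetostat and 3.87 to 5.10 CPM with both drugs. Epithelial markers and markers of other cell types thus moved with treatment, and their part in the results was not tested. KRT5, EGFR, LUM and CSF1R are named because of their change. In bulk RNA, a change in how many cells express a gene and a change in RNA per cell cannot be told apart.

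The serum amyloid A pair rose with ipatasertib, fell with tazemetostat and stood near its DMSO level with both drugs. SAA1 and SAA2 encode apolipoproteins of high-density lipoprotein and are classic acute-phase genes. SAA1 measured 9.93, 9.63 and 8.82 CPM in the DMSO libraries A, B and C and 18.5, 25.3 and 25.0 CPM with ipatasertib. It measured 3.56, 3.25 and 3.04 CPM with tazemetostat and 9.92, 8.72 and 7.11 CPM with the combination. Every ipatasertib library was above, and every tazemetostat library below, all libraries of DMSO and of the combination, which overlapped each other. The log2 fold change of SAA1 was 1.27 ± 0.12 (SE) with ipatasertib (edgeR adjusted p = 2.25e-08) and -1.53 ± 0.15 with tazemetostat (edgeR adjusted p = 2.81e-08). With both drugs it was -0.13, with a 95% interval of -0.418 to 0.157 (edgeR adjusted p = 0.421).

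SAA2 stood at 3.55, 3.68 and 3.52 CPM with DMSO, 7.36, 8.33 and 9.27 CPM with ipatasertib, 1.57, 1.01 and 1.16 CPM with tazemetostat and 3.49, 4.25 and 2.996 CPM with both drugs. Its groups took the same order as those of SAA1, with the combination and DMSO again overlapping. The log2 fold changes were 1.22 ± 0.14 with ipatasertib, -1.55 ± 0.19 with tazemetostat and -0.01 with both drugs (95% interval -0.354 to 0.340). The tazemetostat values of SAA2 rest on 27 to 30 reads per library.

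SAA1 and SAA2 are near-identical neighbours on chromosome 11, so reads could be assigned to either or lost, and their separate levels are uncertain. SAA1 took 72.5% ± 1.11 of the reads of the pair with DMSO, 73.2% ± 1.89 after ipatasertib, 72.7% ± 3.48 with tazemetostat and 70.5% ± 3.36 with both drugs (SD, n = 3 each). The split of the pair thus differed between groups by no more than the spread among libraries. The readthrough gene SAA2-SAA4 had 0 reads, and SAA4, the constitutive member of the family, had 16 reads over all 12 libraries.

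**Figure D1:**
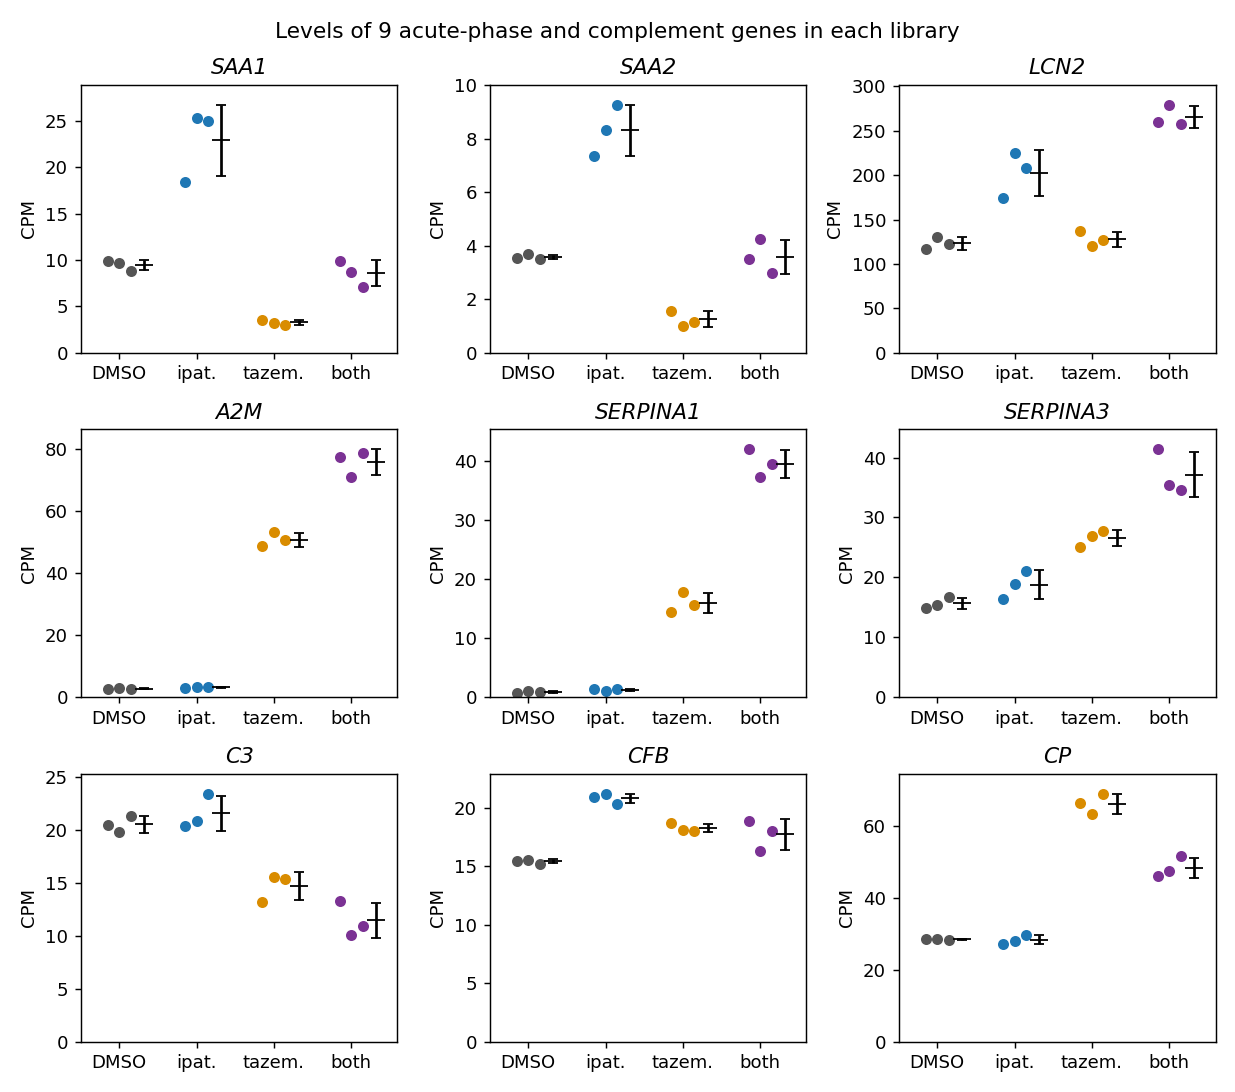
Level of 9 genes in each library (points, CPM on a linear axis from 0; A, B and C from left to right) with the group mean and SD beside them (n = 3; ipat., ipatasertib; tazem., tazemetostat; both, the combination). SAA1 and SAA2 were highest with ipatasertib and lowest with tazemetostat, whereas A2M and SERPINA1 were near the bottom of the axis without tazemetostat and highest with both drugs.

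The 3 protease inhibitors were highest with both drugs. A2M encodes alpha-2-macroglobulin, a large trap for proteases of many kinds. It stood at 2.59, 2.998 and 2.56 CPM with DMSO and 3.09, 3.20 and 3.31 CPM with ipatasertib. Tazemetostat libraries held 48.6, 53.1 and 50.4 CPM and combination libraries 77.3, 71.0 and 78.7 CPM. No neighbouring groups of A2M overlapped, although the gap between DMSO and ipatasertib was small and did not pass (log2 fold change 0.25, 95% interval -0.0286 to 0.524, edgeR adjusted p = 0.134). The gene was 18.8-fold higher with tazemetostat than with DMSO (log2 fold change 4.23 ± 0.10, edgeR adjusted p = 7.7e-19) and 28.0-fold higher with both drugs (4.81 ± 0.10, edgeR adjusted p = 3.24e-20). Adding ipatasertib to tazemetostat raised A2M by a further 0.58 ± 0.07 on the log2 scale (edgeR adjusted p = 1.01e-06).

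SERPINA1 encodes alpha-1-antitrypsin, the main plasma inhibitor of neutrophil elastase. It had 21, 22 and 24 reads in the DMSO libraries (0.745, 0.999 and 0.889 CPM) and stood at 1.35, 0.961 and 1.38 CPM with ipatasertib. It reached 14.5, 17.8 and 15.7 CPM with tazemetostat and 42.1, 37.3 and 39.5 CPM with both drugs. The tazemetostat and combination libraries were above all others and apart from each other, and DMSO and ipatasertib overlapped. Against DMSO the gene was 18.4-fold higher with tazemetostat (log2 fold change 4.20 ± 0.15, edgeR adjusted p = 1.18e-15) and 45.4-fold higher with both drugs (5.50 ± 0.14, edgeR adjusted p = 1.58e-18). With ipatasertib alone the log2 fold change was 0.52, with a 95% interval of 0.0400 to 1.004 before adjustment (edgeR adjusted p = 0.0699), and it passed without ipatasertib replicate B (0.64, edgeR adjusted p = 0.0385). The combination exceeded tazemetostat by 1.31 ± 0.10 on the log2 scale.

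SERPINA3 encodes alpha-1-antichymotrypsin, an inhibitor of cathepsin G and related proteases. Its libraries held 14.9, 15.4 and 16.7 CPM with DMSO, 16.4, 18.8 and 21.1 CPM with ipatasertib, 25.2, 26.9 and 27.8 CPM with tazemetostat and 41.4, 35.5 and 34.6 CPM with both drugs. Each step of this order was apart from the next except that ipatasertib and DMSO overlapped. The log2 fold changes against DMSO were 0.77 ± 0.10 with tazemetostat (edgeR adjusted p = 1.16e-06) and 1.25 ± 0.10 with the combination (edgeR adjusted p = 2.68e-10). The rise with ipatasertib was small, at 0.27 ± 0.10 (edgeR adjusted p = 0.0326), and it no longer passed without DMSO replicate A or B or without ipatasertib replicate B or C, with values from 0.15 to 0.25 in these fits.

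SERPINA1 and SERPINA3 belong to the serpin cluster of chromosome 14. Among the list of family relatives (other serpins of clade A, A2M-like proteins, lipocalins and ferroxidases), 17 of 18 genes were in the tables and 5 were tested, none of them a serpin. SERPINA6, the corticosteroid-binding globulin next to SERPINA1, had 0 reads with DMSO and with ipatasertib, 10 with tazemetostat and 11 with both drugs over 3 libraries each. In the same order, SERPINA11, on the other side of SERPINA1, had 0, 1, 1 and 4 reads. SERPINA5, next to SERPINA3, had 8, 4, 11 and 13 reads. PZP, the pregnancy zone protein next to A2M, had no read in any group. Of the 5 tested relatives, 1 rose and none fell with ipatasertib, all 5 rose with tazemetostat, and 3 rose with the combination, where 47.1%, 47.2% and 64.4% of all tested genes passed in either direction. CD109, a membrane protein of the A2M family, rose from 212 ± 2.46 CPM with DMSO to 304 ± 16.6 with ipatasertib, 294 ± 18.4 CPM with tazemetostat and 467 ± 50.9 with both drugs (SD, n = 3). LRP1, a receptor that takes up protease-bound A2M, rose from 2.84 ± 0.535 CPM with DMSO to 5.90 ± 0.578 with ipatasertib, 8.15 ± 0.824 CPM with tazemetostat and 11.4 ± 1.10 with both drugs. A2M overlaps KLRG1 (69 reads in all libraries) and an antisense gene in the RefSeq annotation, and no source used here gives the strand setting, so reads of overlapping genes cannot be assigned with certainty.

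Of the iron genes, LCN2 rose with ipatasertib and CP with tazemetostat. LCN2 encodes lipocalin 2, which binds the siderophores by which bacteria take up iron. Its libraries held 117, 130.2 and 122 CPM with DMSO and 175, 225 and 209 CPM with ipatasertib. They held 137, 119.8 and 127 CPM with tazemetostat and 260.4, 279 and 257 CPM with the combination. Tazemetostat and DMSO overlapped, ipatasertib lay above both, and the combination lay above ipatasertib. The log2 fold change was 0.72 ± 0.08 with ipatasertib (edgeR adjusted p = 2.90e-07), 0.06 with tazemetostat (95% interval -0.113 to 0.225, edgeR adjusted p = 0.598) and 1.11 ± 0.08 with both drugs (edgeR adjusted p = 9.71e-11).

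CP encodes ceruloplasmin, the copper-carrying ferroxidase of plasma. It measured 28.6, 28.6 and 28.2 CPM with DMSO, 27.3, 28.1 and 29.7 CPM with ipatasertib, 66.4, 63.3 and 68.9 CPM with tazemetostat and 46.2, 47.5 and 51.6 CPM with both drugs. Ipatasertib and DMSO overlapped, and the combination lay between them and tazemetostat with no overlap. The log2 fold change was -0.01 with ipatasertib (95% interval -0.159 to 0.148), 1.22 ± 0.07 with tazemetostat (edgeR adjusted p = 5.26e-12) and 0.77 ± 0.07 with both drugs (edgeR adjusted p = 6.79e-09). The combination was below tazemetostat by -0.45 ± 0.07 (edgeR adjusted p = 2.08e-05). CP overlaps HPS3 in the RefSeq annotation, and HPS3 had 15425 reads in all libraries.

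A list of 15 partners and targets of the members, which holds iron genes and others such as LRP1, had 8 genes tested. Of these, 3 rose and none fell with ipatasertib, 6 rose and none fell with tazemetostat, and 5 rose and 1 fell with the combination, against the same 47.1%, 47.2% and 64.4% of all tested genes. The ferritin chains FTH1 and FTL, which store iron, both rose in all 3 comparisons. FTH1 changed by 0.18, 0.82 and 1.04 on the log2 scale with ipatasertib, tazemetostat and both, and FTL by 1.06, 0.41 and 1.18. TFRC, the transferrin receptor, stood at 459 ± 26.6 CPM with DMSO and 436 ± 44.9 with ipatasertib. It stood at 488 ± 31.6 CPM with tazemetostat and 440 ± 35.1 with both drugs. SLC11A2, an iron transporter, stood at 95.9 ± 2.94, 99.4 ± 2.30, 88.2 ± 5.85 and 85.9 ± 3.15 CPM in the same order. TFRC and SLC11A2 are named because they differ from the ferritins. HEPH, a membrane ferroxidase related to CP, stood at 0.383 ± 0.0990 CPM with DMSO, 0.202 ± 0.107 with ipatasertib, 2.15 ± 0.246 CPM with tazemetostat and 1.91 ± 0.299 with both drugs; it was picked for the text after its values were seen.

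Of the complement members, C3 fell and CFB rose with tazemetostat, and CFB alone rose with ipatasertib. C3, the central opsonin precursor, measured 20.4, 19.8 and 21.3 CPM with DMSO and 20.4, 20.8 and 23.4 CPM with ipatasertib. It measured 13.2, 15.5 and 15.3 CPM with tazemetostat and 13.3, 10.1 and 10.9 CPM with both drugs. All libraries with tazemetostat, alone or combined, lay below all libraries without it, and the groups overlapped both among the former and among the latter. The log2 fold change was 0.07 with ipatasertib (95% interval -0.126 to 0.270), -0.48 ± 0.10 with tazemetostat (edgeR adjusted p = 0.000394) and -0.83 ± 0.11 with both drugs (edgeR adjusted p = 5.44e-07). The further fall from tazemetostat to the combination was -0.35 ± 0.11 (edgeR adjusted p = 0.0113), and it did not pass without combination replicate B (-0.28, edgeR adjusted p = 0.0629).

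CFB encodes factor B, the protease subunit that joins activated C3 in the alternative pathway. Its libraries held 15.5, 15.5 and 15.2 CPM with DMSO, 20.9, 21.1 and 20.3 CPM with ipatasertib, 18.7, 18.1 and 18.0 CPM with tazemetostat and 18.9, 16.3 and 18.0 CPM with both drugs. All treated libraries were above all DMSO libraries, ipatasertib was highest, and tazemetostat and the combination overlapped. The log2 fold change was 0.43 ± 0.08 with ipatasertib (edgeR adjusted p = 0.000152), 0.24 ± 0.08 with tazemetostat (edgeR adjusted p = 0.0178) and 0.21 ± 0.09 with both drugs (edgeR adjusted p = 0.0381). The last of these did not pass with DESeq2 (0.19, DESeq2 adjusted p = 0.0945) or with RLE factors. Nor did it pass with no filter, the 2 groups alone or the replicate letter as a block. It was also lost in 11 of the 12 fits that left out 1 library (0.15 to 0.21), and without every A library (0.16, edgeR adjusted p = 0.164). Of the fits without 1 library it passed in the one without combination replicate B. The rise with tazemetostat did not pass with no filter, or without DMSO replicate C or tazemetostat replicate B or C, at 0.23 in each.

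ORM1 encodes orosomucoid, a plasma carrier of basic drugs. It had 1 read in ipatasertib replicate C, 1 read in tazemetostat replicate A and 0 reads in the other 10 libraries, so any level was below what 3 reads would give. Its near-copy ORM2 had 0, 4, 3 and 0 reads over the libraries of DMSO, ipatasertib, tazemetostat and the combination. No difference was detectable at this depth.

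Counted over the 9 tested members, ipatasertib raised 5 (SAA1, SAA2, LCN2, CFB and SERPINA3) and lowered none, where 47.1% of all tested genes passed, 24% higher and 23.1% lower. Tazemetostat raised 5 (CP, A2M, CFB, SERPINA1 and SERPINA3) and lowered 3 (SAA1, SAA2 and C3), against 47.2% of all tested genes, 25.9% higher and 21.3% lower. The combination raised 6 (CP, LCN2, A2M, CFB, SERPINA1 and SERPINA3) and lowered C3, against 64.4% of all tested genes, 34.4% higher and 30% lower. Among these, the rise of CFB did not pass in 17 other fits. The median log2 fold change of the 9 was 0.43 with ipatasertib, 0.24 with tazemetostat and 0.77 with both drugs, and that of all tested genes was 0.00, 0.01 and 0.03. These 3 comparisons share the DMSO libraries. Libraries of the groups did not overlap for 5, 8 and 7 members, against 58.9%, 56.8% and 68.7% of all tested genes. Since the members were chosen with these contrasts known, nothing is read from the counts. Scaled by library totals, the share of higher among called genes with tazemetostat moved from 54.9% to 67.9% over all genes, and the members' own split stayed at 5 higher and 3 lower.

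**Figure D2:**
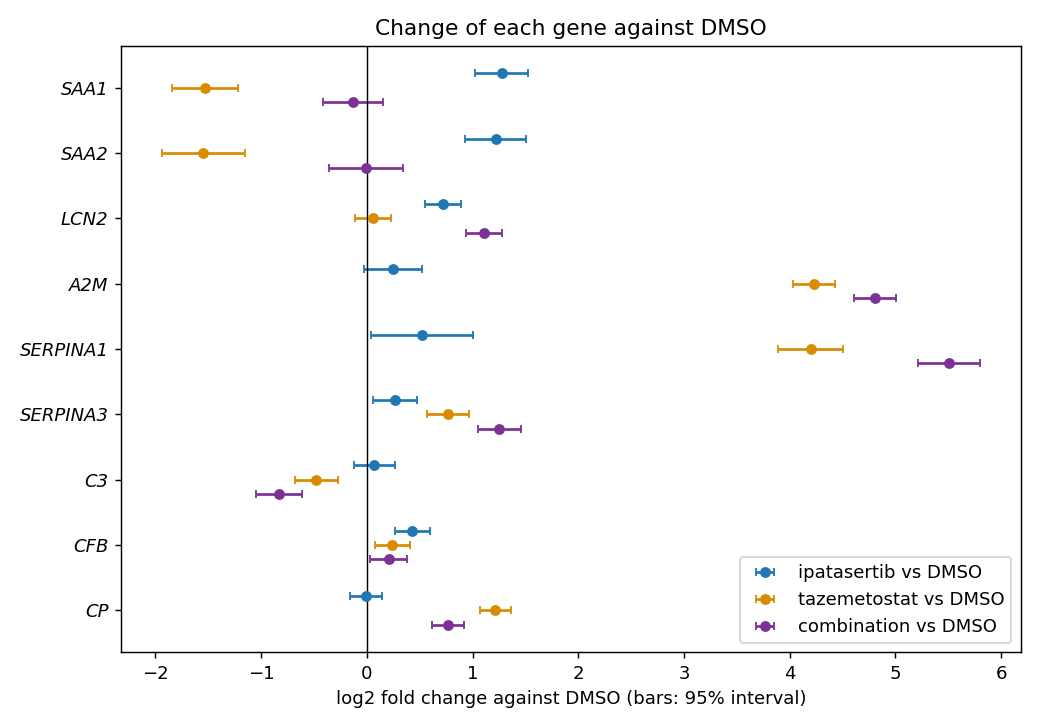
log2 fold change of each gene against DMSO for ipatasertib, tazemetostat and the combination (points, edgeR estimate; bars, 95% interval; the line marks no change). The changes of A2M and SERPINA1 with tazemetostat and the combination lay above 4, and SAA1 and SAA2 lay on opposite sides of the line with the single drugs.

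The combination was also set against each drug. Against ipatasertib, 5 members were higher (A2M, SERPINA1, SERPINA3, CP and LCN2) and 4 lower (SAA1, SAA2, C3 and CFB), where 44.9% of all tested genes passed, 24.2% higher and 20.7% lower. The falls of SAA1 and SAA2 were -1.40 ± 0.13 and -1.23 ± 0.15 on the log2 scale. That of CFB was the smallest, at -0.22 ± 0.08 (edgeR adjusted p = 0.0338). The fall of CFB did not pass without combination replicate B or C or ipatasertib replicate B. Nor did it pass with library totals, the 2 groups alone or the replicate letter as a block. Against tazemetostat, 6 members were higher (SAA1, SAA2, LCN2, A2M, SERPINA1 and SERPINA3) and 2 lower (CP and C3), where 46.3% of all tested genes passed, 23.2% higher and 23.1% lower. The rises of SAA1, SAA2 and LCN2 were 1.40 ± 0.16, 1.54 ± 0.20 and 1.05 ± 0.08. CFB differed by -0.04, with a 95% interval of -0.212 to 0.139. Groups did not overlap for 9 members against ipatasertib and 7 against tazemetostat, where 49.8% and 48.9% of all tested genes were apart.

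An interaction term asked where the level with both drugs departed from the product of the 2 single ratios. It passed for 3 of the 9 members, 1 higher and 2 lower, where 12% of all tested genes passed, 5.96% higher and 6.01% lower. CP had 48.4 CPM with both drugs where the product of the ratios gives 65.9 CPM (interaction -0.45 ± 0.10 on the log2 scale, edgeR adjusted p = 0.00991). CFB had 17.7 CPM against 24.6 CPM (-0.47 ± 0.12, edgeR adjusted p = 0.0148). SERPINA1 had 39.6 CPM against 22.4 CPM (0.78 ± 0.26, edgeR adjusted p = 0.0484). Thus CP and CFB fell short of the product and SERPINA1 exceeded it, the latter with a p close to the threshold.

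The interaction of SERPINA1 did not pass in 11 of its alternative fits, which left out any DMSO or ipatasertib library, combination replicate B or C or tazemetostat replicate C, or used library totals or the replicate letter as a block; its value stayed between 0.66 and 0.90. That of CFB did not pass without combination replicate B (-0.40, edgeR adjusted p = 0.0616). LCN2 (0.33, 95% interval 0.0972 to 0.572, edgeR adjusted p = 0.0583) and C3 (-0.42, -0.726 to -0.124, edgeR adjusted p = 0.0581) missed the threshold. Each passed without combination replicate A or tazemetostat replicate A, and with DESeq2 or no filter. LCN2 also passed without ipatasertib replicate B, and C3 with library totals or at least 50 counts in 3 libraries. SAA1 (0.13, -0.291 to 0.546), SAA2 (0.32, -0.195 to 0.837), A2M (0.33, 0.0143 to 0.645) and SERPINA3 (0.22, -0.0670 to 0.503) did not pass. With both drugs SAA1 had 8.58 CPM where the product gives 7.95 CPM, and SAA2 had 3.58 CPM where it gives 2.90 CPM. Over all genes, library totals moved the share of positive among passing interactions from 49.8% to 33.6%, and the members then split into 0 positive and 3 negative.

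**Figure D3:**
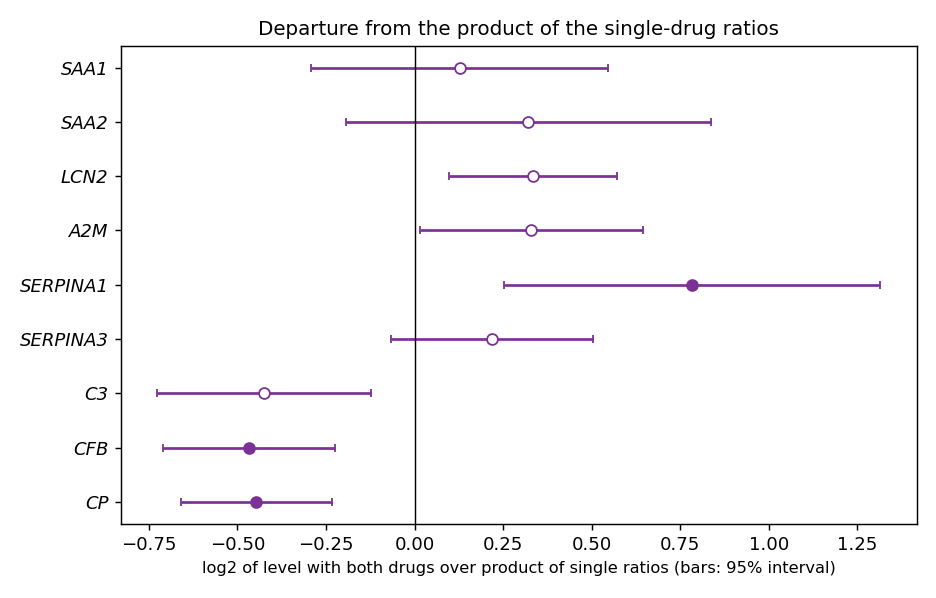
Departure of the level with both drugs from the product of the single-drug ratios for each gene (log2 scale; points, edgeR estimate; bars, 95% interval; filled, adjusted p under 0.05). CP and CFB lay below 0 and SERPINA1 above it.

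Ordered by level, the groups ran tazemetostat, combination, DMSO, ipatasertib for SAA1 and SAA2, and DMSO, ipatasertib, tazemetostat, combination for A2M, SERPINA1 and SERPINA3. CP alone was highest with tazemetostat, C3 was lowest with the combination, LCN2 was highest with the combination, and CFB was highest with ipatasertib. The ratio of the highest to the lowest group mean was 45.1 for SERPINA1, 27.9 for A2M, 6.98 for SAA1 and 6.66 for SAA2, and it lay between 1.35 (CFB) and 2.37 (SERPINA3) for the other 5. Summed over the 10 genes, the level was 219.7 ± 6.95 CPM with DMSO, 327.8 ± 33.2 with ipatasertib, 324.9 ± 5.32 CPM with tazemetostat and 507.8 ± 6.43 with both drugs (SD, n = 3). The single drugs thus reached a like sum, with different shares of LCN2. LCN2 took 61.7% ± 1.96 of the sum with ipatasertib and 39.4% ± 2.06 with tazemetostat.

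Other complement components were mostly too low to test. Of 24 listed, 7 had no read and 6 were tested; among those without a read were C4A and C4B, a near-identical pair whose reads may have been lost in counting. With ipatasertib 3 of the 6 rose and none fell, with tazemetostat 4 rose and 1 fell, and with the combination 4 rose and 1 fell. The share of all tested genes that passed was 47.1%, 47.2% and 64.4%, so 3 of 6 with ipatasertib is near that background. The median log2 fold change of the 6 was 0.40, 0.49 and 0.68, beside 0.00, 0.01 and 0.03 for all tested genes. C2, the classical-pathway relative of factor B and its neighbour on chromosome 6, rose from 1.76 ± 0.204 CPM with DMSO to 5.38 ± 1.01 with ipatasertib, 2.94 ± 0.221 CPM with tazemetostat and 4.80 ± 0.673 with both drugs. Its interaction was -0.89 ± 0.24 (edgeR adjusted p = 0.0212), of the same sign as that of CFB. C5, which starts the membrane attack complex, rose from 10.3 ± 0.146 CPM to 15.1 ± 0.522, 13.8 ± 0.984 and 18.6 ± 1.53 CPM in the same order. The gene that fell was CFD, the protease that activates factor B, at 1.59 ± 0.0981 CPM with DMSO and 0.875 ± 0.176 and 0.620 ± 0.2802 CPM with tazemetostat and both; it is named because it was the only fall.

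Of 25 complement regulators and receptors listed, 24 were in the tables and 9 were tested; 5 rose and 2 fell with ipatasertib, 7 rose and none fell with tazemetostat, and the same count held with both drugs. All tested genes passed at 47.1%, 47.2% and 64.4%. The median log2 fold change of the 9 was 0.57, 0.73 and 1.03, beside 0.00, 0.01 and 0.03 for all tested genes. SERPING1, the C1 inhibitor, rose from 1.40 ± 0.194 CPM with DMSO to 4.76 ± 0.263 with ipatasertib, 2.98 ± 0.775 CPM with tazemetostat and 8.20 ± 0.744 with both drugs. CFI, factor I, a protease that inactivates C3b, fell with ipatasertib (-0.99 ± 0.16) and rose with tazemetostat (1.42 ± 0.12) and with both (0.73 ± 0.14). The membrane regulators CD55 and CD59 rose in all 3 comparisons, CD55 by 0.57, 0.55 and 1.23 and CD59 by 0.51, 0.22 and 0.56 on the log2 scale. CLU, clusterin, an inhibitor of the terminal complex, rose by 0.60, 0.73 and 1.03. CD46, another membrane regulator, stood at 379 ± 7.72 CPM with DMSO and 325 ± 9.56 with ipatasertib. It stood at 341 ± 40.6 CPM with tazemetostat and 367 ± 38.4 with both drugs, and is named because it differs from CD55 and CD59.

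Few of the other acute-phase genes of the liver were expressed. Of 26 listed, 4 had no read and 6 were tested. With ipatasertib 1 rose and 2 fell, with tazemetostat 2 rose and none fell, and with both drugs 1 rose and 3 fell, which is close to or below the 47.1%, 47.2% and 64.4% of all tested genes that passed. TF, transferrin, the iron carrier of plasma, whose level drops in the acute phase, stood at 19.6 ± 0.687 CPM with DMSO, 5.36 ± 0.551 with ipatasertib, 36.6 ± 1.505 CPM with tazemetostat and 13.5 ± 0.394 with both drugs. It thus fell with ipatasertib (-1.87 ± 0.10) and rose with tazemetostat (0.90 ± 0.08), the reverse of the order of SAA1 for these drugs. LRG1, a leucine-rich glycoprotein, fell with the combination from 15.8 ± 0.970 to 10.5 ± 1.96 CPM.

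**Figure D4:**
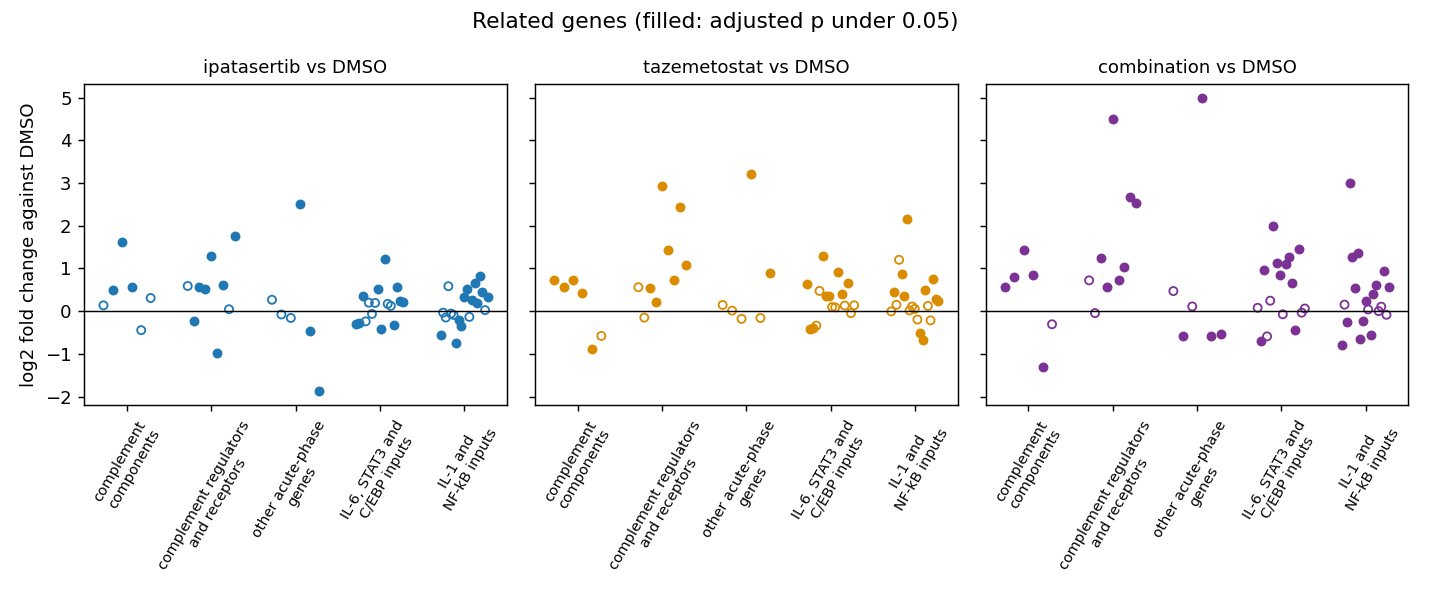
log2 fold change against DMSO of the tested genes of 5 related lists under each treatment (each point is 1 gene; filled, edgeR adjusted p under 0.05; genes in alphabetical order within a list). The complement regulators lay mostly above 0 with tazemetostat and the combination, and the other lists had points on both sides.

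Genes of the interleukin-6 route to the acute phase were widely expressed, with 16 of 20 tested. With ipatasertib 6 rose and 4 fell, with tazemetostat 7 rose and 2 fell, and with both drugs 8 rose and 2 fell. These 10, 9 and 10 of 16 stand beside 47.1%, 47.2% and 64.4% of all tested genes, and the last is near its background. IL6 itself was not tested, at 5, 8, 3 and 10 reads over the libraries of DMSO, ipatasertib, tazemetostat and the combination. LIF, a cytokine of the same family, rose from 7.02 ± 0.444 CPM with DMSO to 16.2 ± 0.218 with ipatasertib and 14.9 ± 2.14 with both drugs, and stood at 7.32 ± 2.07 CPM with tazemetostat. Both groups with ipatasertib thus lay above both without it. The receptor chains IL6R, LIFR and OSMR rose with tazemetostat and with the combination, and their changes with ipatasertib did not pass. IL6ST, the shared receptor chain gp130, rose from 83.6 ± 2.59 CPM with DMSO to 106 ± 9.88 with tazemetostat and 182 ± 15.9 with both drugs, with 95.5 ± 9.97 CPM with ipatasertib (interaction 0.59 ± 0.12, edgeR adjusted p = 0.00436).

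STAT3, the factor these receptors activate, rose by 0.23 with ipatasertib (edgeR adjusted p = 0.0043) and did not pass with tazemetostat (-0.05) or both (-0.04). SOCS3, a feedback inhibitor induced by STAT3, rose by 0.57 ± 0.13, 0.65 ± 0.12 and 1.46 ± 0.12 with ipatasertib, tazemetostat and both. CEBPB fell in all 3 comparisons, by -0.27, -0.42 and -0.70. CEBPD, the C/EBP factor typical of the acute phase, stood at 8.84 ± 0.541 CPM with DMSO, 11.2 ± 0.988 with ipatasertib, 6.78 ± 0.923 CPM with tazemetostat and 17.0 ± 3.85 with both drugs. It rose with ipatasertib (0.35, edgeR adjusted p = 0.0378), fell with tazemetostat (-0.39, edgeR adjusted p = 0.0319) and was highest with the combination (interaction 0.99 ± 0.20, edgeR adjusted p = 0.00376).

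Of 21 genes of the interleukin-1 and NF-kB route, 19 were tested. With ipatasertib 8 rose and 4 fell, with tazemetostat 8 rose and 2 fell, and with both drugs 9 rose and 5 fell. These 12, 10 and 14 of 19 stand beside 47.1%, 47.2% and 64.4% of all tested genes. NFKBIZ, a nuclear co-factor of NF-kB, stood at 45.4 ± 2.79 CPM with DMSO, 54.5 ± 3.97 with ipatasertib, 28.2 ± 2.95 CPM with tazemetostat and 59.7 ± 8.46 with both drugs (interaction 0.81 ± 0.14, edgeR adjusted p = 0.00108). It thus rose with ipatasertib and with both drugs and fell with tazemetostat. NFKBIA, the inhibitor that NF-kB induces, fell with tazemetostat (-0.51) and with both (-0.56), and its change with ipatasertib did not pass (-0.14, 95% interval -0.325 to 0.0543). RELB rose with ipatasertib (0.82 ± 0.14) and did not pass with tazemetostat (-0.22) or both (0.10). IL1R1, the signalling receptor, rose with tazemetostat (0.87) and both (1.27), and IL1RN, the receptor antagonist, fell with ipatasertib (-0.74 ± 0.16) and rose with tazemetostat (2.16 ± 0.12) and both (1.37 ± 0.13).

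The genes outside the member list whose levels followed each member most closely over the 12 libraries were taken by Pearson's r of log2 CPM. The search covered tested genes with at least 5 CPM in the highest group mean. Members were left out of it, so a member could not be listed for another. With 4 groups of 3 libraries, such an r mostly reflects the order of the group levels, and it is a description. SAA1 was closest to ISYNA1 (0.992), IER3 (0.989) and ERRFI1 (0.984), and SAA2 to IER3, ERRFI1 and RPL4. A2M was closest to MMP13 (0.998), HSPB8 (0.998) and ABP1 (0.997), and SERPINA1 to FKBP9L (0.997), C14orf132 (0.995) and SHISA2 (0.995). SERPINA3 was closest to RAB3IL1 (0.992), CTSH and SLC39A2, CP to GPM6A (0.991), CSRP2 and GNG4, and LCN2 to SAT1 (0.988), TFPI2 and IL18. C3 was closest to LONP1 (0.991), TUFM and BCAT2, and CFB to BACE1 (0.945), ZSCAN20 and ERGIC3. CFB thus had the loosest companions of the 9.

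IER3, an immediate early gene, was among the closest for both serum amyloid genes, at 353 ± 21.3 CPM with DMSO, 755 ± 27.9 with ipatasertib, 137 ± 6.03 CPM with tazemetostat and 332 ± 37.1 with both drugs. MMP13, a collagenase, stood at 0.0151 ± 0.0262 CPM with DMSO, 0.0632 ± 0.0377 with ipatasertib, 61.5 ± 9.39 CPM with tazemetostat and 90.0 ± 2.35 with both drugs, the same order as A2M.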

How the data were processed

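Poly(A) RNA of MDA-MB-468 in 4 groups of 3 libraries was used, grouped by the treatment label. What the authors deposited is 1 table of unnormalized counts a library, by gene symbol. STAR, SAMtools, HTSeq, DESeq2 and hg19 appear in the submitters' processing notes; no source used here states versions, annotation or strand. A second deposited table, of normalized signal, was each library's counts over 1 constant for 100% of 23202 matched genes (tolerance 0.001; 26 did not match) and was used only for that check. Gene neighbours and upstream sequences came from RefSeq (GRCh38.p14), and no gene coordinates are given in hg19.

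Table lines without a gene name entered neither the totals nor the fit. In edgeR 4.0.16 under R 4.3.3, genes were kept by filterByExpr at a minimum count of 10, scaled by TMM, and fitted together over 12 libraries (8 residual degrees of freedom). Robust quasi-likelihood tests were adjusted by Benjamini-Hochberg over 14571 genes at a threshold of 0.05. A gene passed, rose or fell where its adjusted p was below that threshold. The 6 comparisons set the 3 treatments against DMSO, set the combination against either drug alone, and tested the interaction. Intervals are 95%, unadjusted; floors and intervals cover counting error or the spread between libraries only, since reads are not independent molecules. The procedure was also run on simulated data with far fewer changed genes than were called here and the same spread for every gene. That run therefore does not show how often calls are wrong in these data.

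The members and gene lists were chosen with earlier results of these data known. From each list up to 4 genes with an adjusted p below the threshold against DMSO and at least 5 CPM in the highest group are named by largest change, besides a fixed set of regulators; part of these are printed, some are not reported here, chromosomal neighbours of members are given too, and other genes outside this rule are marked. Up to 3 genes of closest pattern from outside the members are given per member, with 0.5 CPM added before the log. Replicate letters were checked for pairing by correlating deviations from the group means. For ipatasertib and DMSO, libraries of 1 letter correlated at 0.422, 0.139 and 0.114, all 3 over the bound of 0.1. However, only 1 of the 3 ipatasertib libraries correlated best with the DMSO library of its own letter, so pairing was not clear. No other comparison met the bound in every pair. Between the combination and tazemetostat the correlations were -0.618, -0.537 and -0.350. The letter as a block left 5 members called for ipatasertib, with 0 changes of call. Other fits used DESeq2 1.42.0, RLE factors or library totals, no filter or 50 counts in 3 libraries, the 2 groups alone, the block, or 1 library fewer; a fit without every A library was added after seeing the data.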

Additional observations from a re-analysis of the deposited data

Results flagged for a closer look

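Each of 3 members passed the test of whether the tazemetostat effect differed with and without ipatasertib, where 12% of all tested genes did. CP differed by -0.45 on the log2 scale: tazemetostat raised it by 1.22 over DMSO and by 0.77 over ipatasertib. CFB differed by -0.47, with a rise of 0.24 over DMSO and a change of -0.22 over ipatasertib. SERPINA1 differed by 0.78, with rises of 4.20 and 4.98. Its interaction lay close to the threshold (edgeR adjusted p = 0.0484) and did not pass in 11 of the alternative fits. These values come from the libraries with which the members were chosen, and no explanation was tested.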

How the results depend on the processing

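Each of the 9 tested members was recomputed in 6 comparisons under the other fits. Of 1071 values, 997 kept their direction and side of the threshold, 44 lost and 14 gained a call, and 16 turned direction; all that turned had not passed in the reported fit. For the interaction, 3 members were called in the reported fit, and 5 with DESeq2, with no filter and without every A library; leaving out 1 library gave 1 (without combination replicate B) to 5 (without tazemetostat or combination replicate A). Leaving out 1 library gave 4 to 5 called members for ipatasertib, 7 to 8 for tazemetostat and 6 to 7 for the combination.

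With library totals, CP with ipatasertib became 0.0375 and SAA2 with the combination 0.0533. With at least 50 counts in 3 libraries these were 0.00463 and 0.0122, and without every A library 0.0287 and 0.00175. Without every A library LCN2 with tazemetostat was -0.0305 and the SAA1 interaction -0.126. Leaving out 1 library in turn gave ranges of -0.0558 to 0.00626 for CP with ipatasertib, -0.153 to 0.0953 for SAA2 with the combination, -0.0073 to 0.0921 for LCN2 with tazemetostat, -0.00362 to 0.244 for the SAA1 interaction, -0.00871 to 0.0967 for C3 with ipatasertib and -0.0881 to 0.0108 for CFB between the combination and tazemetostat. The cause was not tested.

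Without every A library the interactions of C3 (-0.66, edgeR adjusted p = 0.000531) and LCN2 (0.34, edgeR adjusted p = 0.00147) passed. For the comparisons that did not meet the pairing bound in every pair and for the interaction, the letter as a block was fitted too. It left 8, 6, 8, 8 and 2 members called for tazemetostat, the combination, the combination against ipatasertib, the combination against tazemetostat and the interaction. Depth limits SERPINA1 and SAA2, at under 40 reads per library in their lowest groups, and ORM1.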
